A study of Rattus norvegicus with 40 samples.

Results

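The messenger RNA of 9 genes of DNA crosslink and double-strand break repair was followed in rat liver under diethylnitrosamine (DEN): Brca1, Brca2, Fancd2, Fanci, Fanca, Blm, Exo1, Rad54l and Xrcc2. They were chosen by symbol, with earlier results of these data known. Rows for 7 of the 9 were found among the 17337 genes of the count files. The RNA of Fanci and Blm was not analysed here. Male Fischer 344 rats, 7 weeks old at the start, received 50 mg/kg of DEN once a week by intra-peritoneal injection. Non-tumoral (NT) liver was taken from 4 rats after 8 weeks of DEN, from 4 rats after 14 weeks, and from 4 rats that had 14 weeks of DEN and then 6 weeks without it (20 weeks). At 14 and 20 weeks, 2 tumor nodules of each of these rats were sequenced as well. At each time 4 age-matched rats without DEN gave control liver (No DEN), which made 40 libraries from 24 rats. Counts were summed over both nodules of a rat, and each of the 8 groups held 4 values, 1 per rat. The comparisons ask whether the repair genes changed under DEN and in tumors, and how their changes compare with that of Mki67, the gene of the Ki-67 antigen of cycling cells.

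DEN is activated in hepatocytes by cytochrome P450 enzymes into a species that alkylates DNA. In the Fanconi pathway, a core complex with FANCA attaches ubiquitin to FANCD2 and FANCI, which marks a crosslink for unhooking. In homologous recombination, broken ends are trimmed by nucleases such as EXO1 with the helicase BLM, in a step that BRCA1 promotes. BRCA2, RAD54L and XRCC2 act in the later steps, in which the single strand pairs with the sister chromatid. The sister chromatid exists only after replication, and these genes are known to be transcribed mostly in S and G2 phase, many of them under E2F factors.

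The promoters of 4 members are shown because E2F factors read a short core sequence, and 2 of these promoters hold it and 2 do not. They were chosen after the values were seen, so that each pair has 1 member with a small rise under DEN (Brca1, Brca2) and 1 with a large rise (Fancd2, Rad54l). The sequences are from RefSeq on the build GRCr8, whereas the reads were aligned to rn6. Each runs 5′ to 3′ on the strand of its gene, over 300 bases around the start, most of them before it, in lower case. Capitals mark the E2F core, searched on both strands as TTCCCGC and in the related forms TTGGCGC, where the motif has other inner letters, as well as TTCGCGC, a further form, and finally TTGCCGC.
Brca1, chr10:86977532-86977831, minus strand: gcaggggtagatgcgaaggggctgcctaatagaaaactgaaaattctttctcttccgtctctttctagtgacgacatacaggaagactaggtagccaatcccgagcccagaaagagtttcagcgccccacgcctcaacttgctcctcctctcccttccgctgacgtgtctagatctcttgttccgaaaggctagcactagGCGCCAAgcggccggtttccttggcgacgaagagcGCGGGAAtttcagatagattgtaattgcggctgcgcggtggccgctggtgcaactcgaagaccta
Fancd2, chr4:148234458-148234757, plus strand: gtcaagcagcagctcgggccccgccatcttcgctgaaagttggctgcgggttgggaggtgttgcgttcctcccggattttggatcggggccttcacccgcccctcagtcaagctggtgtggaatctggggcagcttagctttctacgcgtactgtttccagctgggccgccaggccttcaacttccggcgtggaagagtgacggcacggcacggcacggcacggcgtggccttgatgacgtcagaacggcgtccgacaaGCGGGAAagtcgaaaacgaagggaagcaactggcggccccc
Brca2, chr12:4895197-4895496, plus strand: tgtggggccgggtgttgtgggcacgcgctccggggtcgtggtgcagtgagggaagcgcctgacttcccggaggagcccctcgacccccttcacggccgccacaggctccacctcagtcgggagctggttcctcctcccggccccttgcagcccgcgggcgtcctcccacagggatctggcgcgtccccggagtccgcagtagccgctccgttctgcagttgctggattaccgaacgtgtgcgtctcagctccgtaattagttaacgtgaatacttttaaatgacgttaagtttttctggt
Rad54l, chr5:134841722-134842021, minus strand: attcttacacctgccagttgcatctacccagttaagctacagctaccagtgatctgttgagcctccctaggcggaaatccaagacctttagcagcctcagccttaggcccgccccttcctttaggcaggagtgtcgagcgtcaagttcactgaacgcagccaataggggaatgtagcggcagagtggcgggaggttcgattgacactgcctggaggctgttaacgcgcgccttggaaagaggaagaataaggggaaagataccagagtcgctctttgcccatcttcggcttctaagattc

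A promoter was found for 7 of the 9 listed genes, all but Xrcc2 and Blm. The E2F core was present in 3 of the 7 (Brca1 with 2 matches, Fancd2 and Fanci), against 9.52% of 33469 rat promoters of the same length. The cell-cycle homology region TTTGAA was present in 1 of the 7 (Fanci), against 18.3% of all promoters. The box CCAAT was present in 4 of the 7 (Brca1, Fanca, Exo1 and Rad54l), against 37.5%. A match is a description of the letters and not a binding site.

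The libraries held 20528515 to 160622633 counted read pairs, with a median of 30477421, so that 1 CPM, the library-scaled unit used here, was about 30.5 pairs at the median. The deepest library was NT liver of rat H26 at 20 weeks, and the next held 39355849 pairs. Rat numbers begin with F or H. All untreated rats were H, and 4 of the DEN-treated rats were F (F09 and F10 at 8 weeks, F06 at 14 weeks and F03 at 20 weeks), so the letter moves in part with the treatment. The RNA of cell type markers also moved with DEN. The 5 hepatocyte markers (Alb, Apoa1, Ttr, Cps1, Asgr1) summed to between 212736 and 254148 CPM in the untreated livers, to between 131321 and 170210 CPM in NT liver at 14 weeks and to between 103991 and 166067 CPM in nodules at 20 weeks. These 5 did not move together. At 14 weeks Alb, Ttr and Asgr1 fell in NT liver and in nodules, and in nodules at 20 weeks Alb, Ttr and Cps1 fell, while Apoa1 rose in NT liver by 0.54 at 14 weeks and 0.86 at 20 weeks and in nodules by 0.98 and 1.31 on the log2 scale. In NT liver only Cps1 fell at 8 weeks and none at 20 weeks. The sum of the 5 T cell markers ranged from 2.37 to 4.34 CPM in untreated livers and from 7.33 to 9.45 CPM in NT liver at 8 weeks. That of 3 of the 4 cholangiocyte markers ranged from 15.6 to 22.7 CPM in untreated livers, from 34.5 to 83.4 CPM in NT liver at 14 weeks and from 66.4 to 178.9 CPM in nodules at 20 weeks. The 5 stellate cell and myofibroblast markers summed to 151.6 to 228.5 CPM in untreated livers and to 330.3 to 427.1 CPM in NT liver at 14 weeks. In that comparison 2 of 3 T cell, 3 of 3 cholangiocyte, 4 of 5 stellate cell and myofibroblast, 3 of 4 endothelial, 1 of 5 macrophage and 0 of 2 B cell markers tested rose, and 1 stellate cell and myofibroblast marker fell. At 8 weeks 5 of 5 T cell, 2 of 2 B cell and 2 of 3 cholangiocyte markers tested rose in NT liver. So did 4 of 5 stellate cell and myofibroblast, 3 of 4 endothelial and 1 of 5 macrophage markers. No marker of these lists was at 0 in all libraries of a group, and the part of the cell makeup in the results below was not tested. In bulk RNA, more cells expressing a gene and more of its RNA per cell cannot be told apart.

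The repair genes rose in NT liver as a group while DEN was given. A rise means a log2 fold change of 0.5 or more with an adjusted p of at most 0.05, from the quasi-likelihood test of edgeR with p adjusted over all genes tested by Benjamini-Hochberg. Values of single rats are CPM scaled by TMM (trimmed mean of M-values). At 8 weeks all 7 members rose, against 16.5% of 10812 genes, with a median log2 fold change of 1.35 for the members and -0.01 for all genes. At 14 weeks all 7 rose, against 22.8% of 11016 genes, with medians of 2.50 and 0.02. For all 7 members every treated rat lay above every untreated rat in both comparisons, as it did for 18.7% of all genes at 8 weeks and 25.1% at 14 weeks. At the stricter threshold (log2 fold change of at least 1, adjusted p of at most 0.01) 5 of 7 members rose at 8 weeks, without Brca1 and Xrcc2, and 6 at 14 weeks, without Xrcc2. Of all genes, 788 of 10812 rose at this threshold at 8 weeks and 1445 of 11016 at 14 weeks. Mki67 rose by 2.32 ± 0.21 (SE, n = 4 rats per group) on the log2 scale at 8 weeks and by 2.92 ± 0.28 at 14 weeks.

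**Figure D1:**
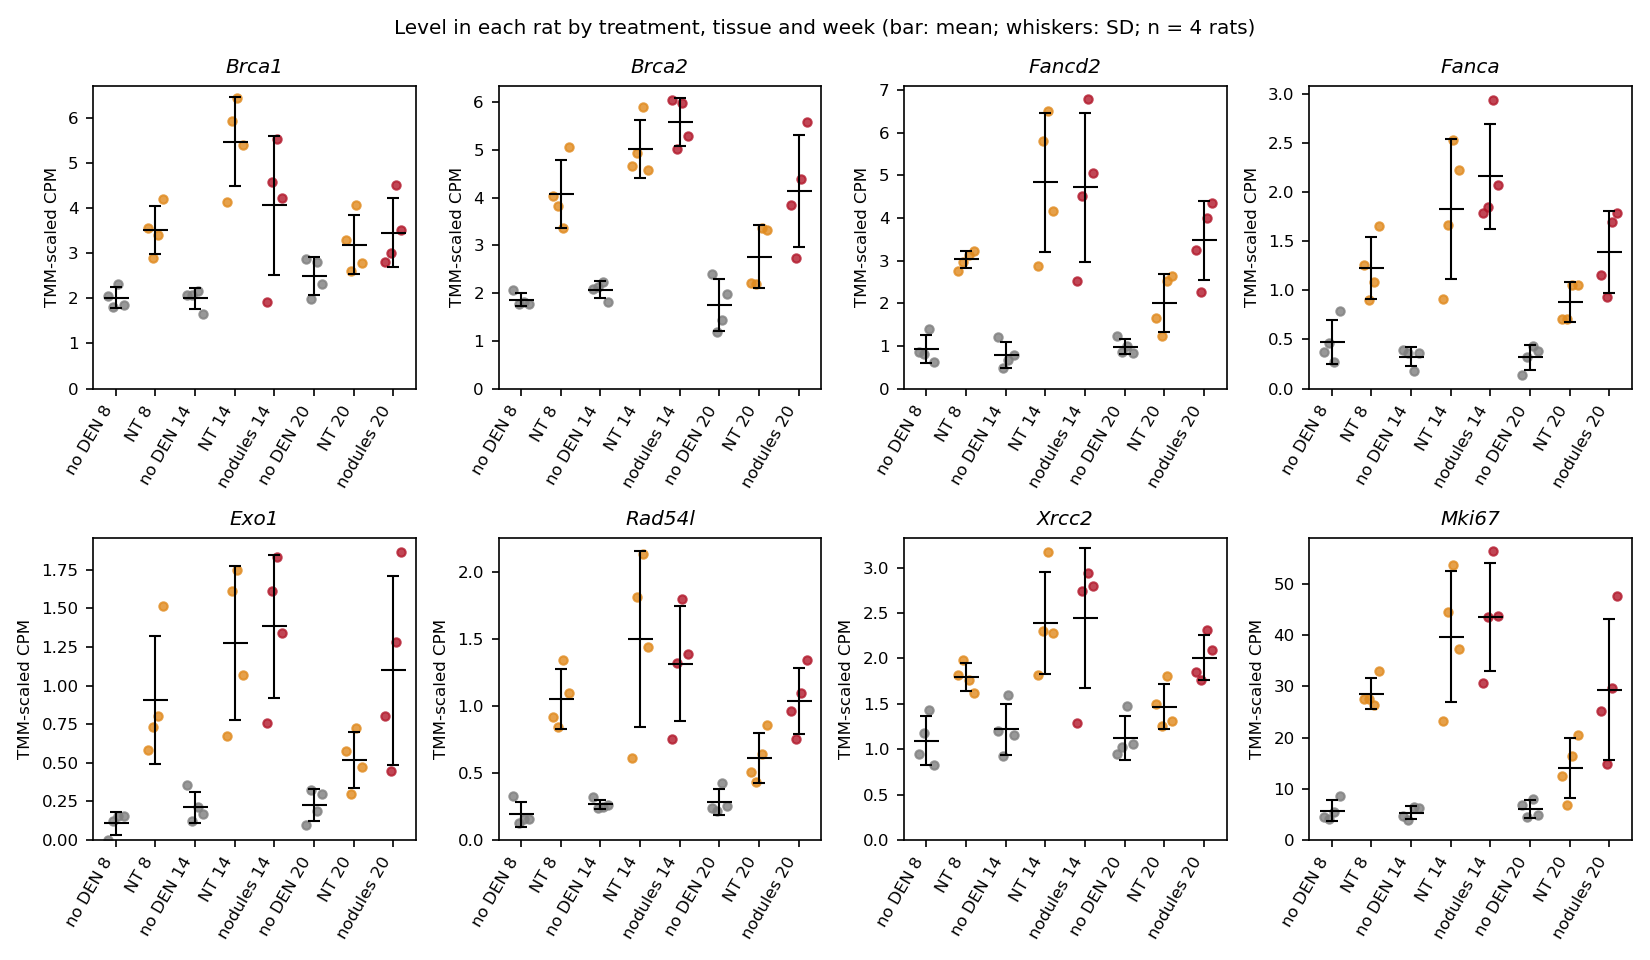
TMM-scaled CPM (vertical axis, from 0) of the 7 analysed members and Mki67 in each of the 8 groups, 1 point per rat, with the mean (bar) and SD (whiskers) of 4 rats; No DEN liver is grey, NT liver orange and nodules red. Fancd2 lies at 0.48 to 1.20 CPM in untreated rats at 14 weeks and at 2.87 to 6.51 CPM in NT liver of the same week.

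Among the Fanconi members, Fancd2, the ubiquitin acceptor of the pathway, had 2.77, 2.98, 3.14 and 3.23 CPM in NT liver at 8 weeks (F09, F10, H17 and H18), against 0.864, 0.80, 1.39 and 0.632 CPM in No DEN liver. At 14 weeks the 4 treated rats had 2.87 (F06), 5.80 (H21), 6.51 (H22) and 4.18 (H23) CPM, against 1.20, 0.48, 0.674 and 0.795 CPM. The 4 treated rats lay close together at 8 weeks and were spread out at 14 weeks, where F06 was the lowest. The log2 fold change was 1.70 ± 0.22 at 8 weeks (adjusted p = 3.59e-04) and 2.63 ± 0.32 at 14 weeks (adjusted p = 9.34e-05). At 20 weeks NT liver had 1.66 (F03), 1.23 (H25), 2.52 (H26) and 2.64 (H28) CPM, against 1.23, 0.861, 0.999 and 0.844 CPM in No DEN liver. The lowest treated rat was level with the highest untreated rat, and the gene had risen by 1.07 ± 0.29 (adjusted p = 0.0193).

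Fanca, a subunit of the core complex, had 0.905 to 1.65 CPM in the 4 treated rats at 8 weeks and 0.27 to 0.79 CPM in the 4 untreated rats, a log2 fold change of 1.35 ± 0.33 (adjusted p = 0.00938). At 14 weeks F06, H21, H22 and H23 had 0.908, 1.66, 2.52 and 2.22 CPM in NT liver, against 0.389, 0.36, 0.177 and 0.364 CPM in the untreated rats. F06 was again the lowest treated rat and still above every untreated rat. The change was 2.52 ± 0.37 (adjusted p = 2.30e-04). At 20 weeks NT liver had 0.704, 0.708, 1.06 and 1.06 CPM, all above the untreated range of 0.141 to 0.428 CPM, with a change of 1.5 ± 0.34 (adjusted p = 0.0089). The untreated levels of Fanca rest on 3 to 20 read pairs per library.

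Brca1, which promotes end trimming and has many partners besides, was 1 of the members with a smaller rise. NT liver at 8 weeks had 3.57, 2.89, 3.39 and 4.19 CPM against 2.06, 1.81, 2.32 and 1.86 CPM in No DEN liver, a log2 fold change of 0.80 ± 0.17 (adjusted p = 0.00437). At 14 weeks the values were 4.13, 5.93, 6.44 and 5.41 CPM against 2.09, 2.08, 2.17 and 1.66 CPM, a change of 1.49 ± 0.16 (adjusted p = 4.43e-05). The groups were clearly apart at both times. At 20 weeks NT liver had 3.29, 2.62, 4.08 and 2.78 CPM, which overlapped the 1.99 to 2.88 CPM of the untreated rats, and the change of 0.38 ± 0.20 missed the threshold (adjusted p = 0.169).

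Brca2, which acts after end trimming, had 4.03, 3.82, 3.36 and 5.05 CPM in NT liver at 8 weeks against 1.77 to 2.06 CPM in the untreated rats, and rose by 1.13 ± 0.16 on the log2 scale (adjusted p = 6.40e-04). At 14 weeks it had 4.66, 4.93, 5.89 and 4.58 CPM against 1.82 to 2.24 CPM and rose by 1.31 ± 0.14 (adjusted p = 3.10e-05). Here the 4 treated rats were close together and F06 did not stand apart. At 20 weeks the values were 2.21, 2.18, 3.35 and 3.31 CPM against 2.4, 1.18, 1.43 and 1.98 CPM. F03 and H25 fell within the untreated range, and the change of 0.68 ± 0.25 missed the threshold (adjusted p = 0.0672).

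Exo1, the nuclease that trims 5′ ends, was close to absent from untreated liver, with 0 to 10 read pairs per library. Its log2 fold changes are therefore imprecise. At 8 weeks NT liver had 0.585, 0.73, 0.801 and 1.51 CPM (19 to 44 pairs) against 0, 0.126, 0.155 and 0.158 CPM, a change of 2.97 ± 0.53 (adjusted p = 0.00189). At 14 weeks it had 0.674, 1.61, 1.75 and 1.07 CPM against 0.353, 0.12, 0.213 and 0.166 CPM, a change of 2.58 ± 0.40 (adjusted p = 3.45e-04). At 20 weeks NT liver had 0.576, 0.30, 0.724 and 0.473 CPM against 0.0943, 0.323, 0.19 and 0.295 CPM, and Exo1 did not pass the filter on low counts in that comparison. Without the filter it was called as risen.

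Rad54l, a motor protein of strand pairing, had 0.923, 0.847, 1.34 and 1.10 CPM in NT liver at 8 weeks against 0.126 to 0.329 CPM in the untreated rats, a log2 fold change of 2.43 ± 0.33 (adjusted p = 4.38e-04). At 14 weeks it had 0.615 (F06), 1.81, 2.14 and 1.45 CPM against 0.24 to 0.318 CPM, a change of 2.50 ± 0.39 (adjusted p = 3.72e-04). F06 had less than any other treated rat of that week. At 20 weeks NT liver had 0.512, 0.436, 0.641 and 0.862 CPM against 0.215 to 0.428 CPM, with H25 only just above the highest untreated rat, and the change was 1.13 ± 0.35 (adjusted p = 0.0344). The untreated levels rest on 3 to 9 pairs per library.

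Xrcc2, which also acts in strand pairing, had the smallest change of the 7 at 8 and 14 weeks. NT liver had 1.82, 1.99, 1.76 and 1.62 CPM at 8 weeks against 0.946, 1.18, 1.43 and 0.83 CPM, a log2 fold change of 0.70 ± 0.20 (adjusted p = 0.0212). This call was lost without H05 (adjusted p = 0.0554), without H08 (adjusted p = 0.054) and in H rats alone (0.63, adjusted p = 0.11). At 14 weeks it had 1.82, 2.30, 3.17 and 2.28 CPM against 1.20, 0.92, 1.60 and 1.16 CPM, a change of 0.99 ± 0.22 (adjusted p = 0.00325). At 20 weeks 1.5, 1.25, 1.80 and 1.31 CPM overlapped the untreated 0.943 to 1.48 CPM, and the change of 0.42 ± 0.23 missed the threshold (adjusted p = 0.193).

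In total, 3 of the 6 members tested had risen in NT liver at 20 weeks (Fancd2, Fanca and Rad54l), against 14.3% of 10827 genes, 6 weeks after the last dose. The count depended on single rats. It was 1 (Fanca) without H14, without H16 or without H26, and 5 (with Brca2 and Exo1) without H25, the rat with the least Mki67 (6.87 CPM, against 12.4 to 20.5 CPM in the other treated rats). Rad54l was also not called without H13 (adjusted p = 0.079), without H28 (adjusted p = 0.076) or by DESeq2 (adjusted p = 0.0554), and Brca2 was called without H13 (adjusted p = 0.0373) and in the fit of all 8 groups (0.66, adjusted p = 0.0173), where 4 members were called. With these settings the number of all genes called changed from 1543 to 1235 without H14, 1011 without H16, 1318 without H26 and 1635 without H25. It was 1826 in the fit of all 8 groups. The share of 14.3% therefore does not apply to these counts. An interaction term in edgeR asked whether the rise differed between times. From 8 to 14 weeks no member passed (8.96% of 11219 genes did), the nearest being Brca1 with an increase of 0.69 ± 0.23 (adjusted p = 0.0674). From 14 to 20 weeks the differences of the 7 members were all negative, from -0.57 (Xrcc2) to -1.56 (Fancd2) on the log2 scale, and none passed, while 0.738% of 11245 genes did. Brca1 came closest, with a difference of -1.10 ± 0.25 (adjusted p = 0.0506), and Mki67 was at -1.68 ± 0.47 (adjusted p = 0.107). Without F06, Brca1 and Fancd2 passed in both interactions, without H18 Brca1 passed in the earlier (8 to 14 weeks), and without H14, H26 or H28 Brca1 passed in the later. DESeq2 called Brca1 and Fancd2 in the later. The genes called in all moved too. In the earlier interaction they went from 1005 to 1760 without F06 and 949 without H18. In the later they went from 83 to 386 without F06, 64 without H14, 408 without H26, 234 without H28 and 382 with DESeq2, so the shares given for all rats do not apply to these member calls. Between untreated rats at 20 and 8 weeks, none of the 4 members with enough counts passed (log2 fold changes of -0.07 to 0.32), against 0.374% of 10418 genes.

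**Figure D2:**
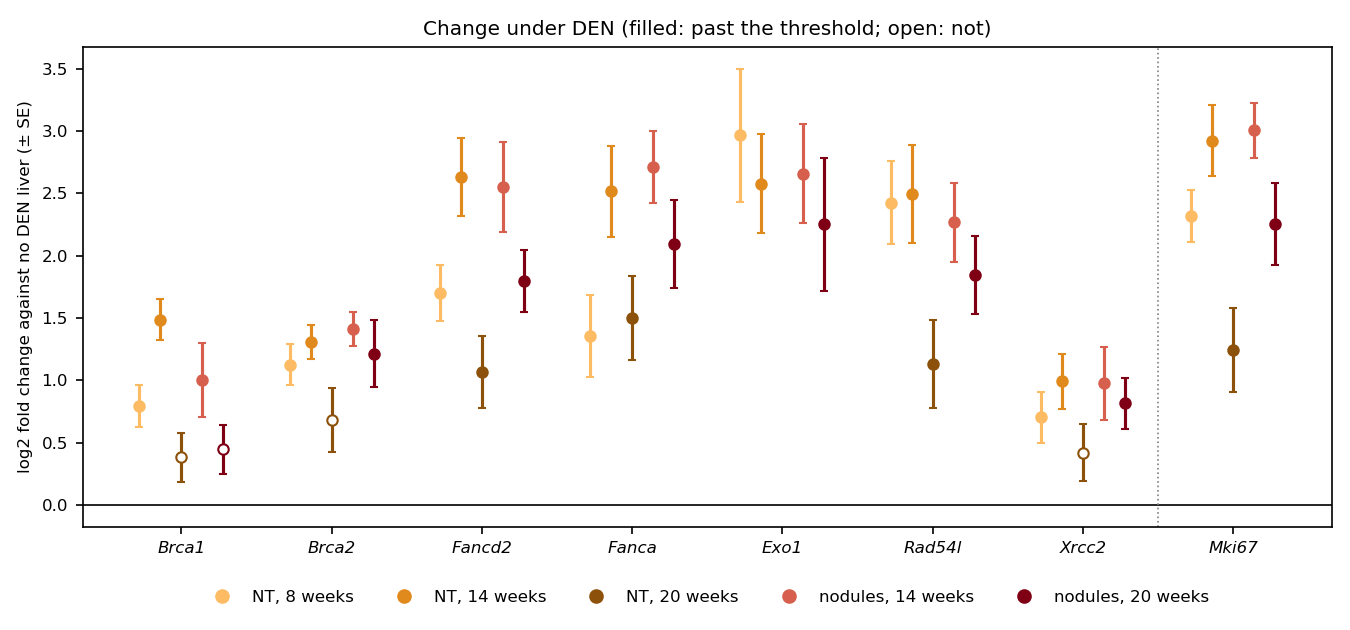
Log2 fold change against No DEN liver of the same week (vertical axis, ± SE) for the 7 members and, right of the dotted line, Mki67, by tissue and week (colours); filled points passed the threshold. Brca1, Brca2 and Xrcc2 stay below 1.5 in every comparison, while Mki67 reaches 3.01 in nodules at 14 weeks.

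The nodules were compared with the same untreated livers as NT liver of their week, so the comparisons of NT liver and of nodules share their controls. At 14 weeks all 7 members were higher in nodules than in No DEN liver, against 23.9% of 11316 genes, with a median log2 fold change of 2.27 for the members. The changes were 2.55 ± 0.36 for Fancd2, 2.71 ± 0.29 for Fanca, 2.66 ± 0.40 for Exo1, 2.27 ± 0.32 for Rad54l, 1.41 ± 0.14 for Brca2, 1.00 ± 0.30 for Brca1 and 0.98 ± 0.29 for Xrcc2, with adjusted p from 6.04e-05 (Brca2) to 0.0209 (Xrcc2). Brca1 (1.91, 4.58, 5.54 and 4.21 CPM) and Xrcc2 (1.29, 2.74, 2.94 and 2.80 CPM) overlapped the untreated rats through F06 alone, the first value of each. Brca2 in the same rat was the highest of the 4, at 6.04 CPM against 5.02, 5.98 and 5.29 CPM. The call of Brca1 was lost without H12 or H22, and that of Xrcc2 without H09, H10, H12 or H22 (adjusted p from 0.0539 to 0.0638), with values of 0.85 to 0.96. At 20 weeks 6 of 7 members were higher in nodules, against 23.6% of 11199 genes, by 2.25 ± 0.53 (Exo1), 2.09 ± 0.36 (Fanca), 1.85 ± 0.31 (Rad54l), 1.80 ± 0.25 (Fancd2), 1.21 ± 0.27 (Brca2) and 0.82 ± 0.21 (Xrcc2). Brca1 had 2.80, 3.01, 4.51 and 3.51 CPM against 1.99 to 2.88 CPM in untreated rats, and its change of 0.45 ± 0.20 missed the threshold (adjusted p = 0.0822), while in H rats alone, that is without F03, it was 0.55 (adjusted p = 0.0463) and all 7 passed. With nodule 1 alone Xrcc2 was at 0.60 and did not pass (adjusted p = 0.0623), which left 5 of 7 members. With nodule 2 alone Exo1 did not pass the filter on low counts, and 5 of 6 members were called. Of all genes, 2531 were called in H rats alone, 2210 with nodule 1 alone and 2429 with nodule 2 alone. With all rats and both nodules 2642 were called. At the stricter threshold 5 of 7 members were higher at both times, without Brca1 and Xrcc2. Of all genes, 1609 of 11316 were higher at this threshold at 14 weeks and 1500 of 11199 at 20 weeks. In the interaction of nodule effect and time from 14 to 20 weeks no member passed (differences of -0.76 to -0.17, adjusted p = 1 for each), against 0.0862% of 11607 genes.

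At 14 weeks no member passed the test between nodules and NT liver, with or without the rat as a block. Without it the differences ranged from -0.45 ± 0.30 (Brca1) to 0.22 ± 0.31 (Fanca) on the log2 scale, and edgeR called 0% of 11466 genes in either direction, with 1348 genes at an unadjusted p under 0.05, while DESeq2 called 35 genes and no member. With the rat as a block the count was 0 as well, with 2518 at an unadjusted p under 0.05. Brca1 had lower values in the nodules of all 4 rats, going from 4.13, 5.93, 6.44 and 5.41 CPM to 1.91, 4.58, 5.54 and 4.21 CPM, by -0.52 ± 0.17 in the fit with the rat as a block (unadjusted p = 0.0231, adjusted p = 0.195). Brca2 had higher values in the nodules of all 4 rats, and Fancd2, Fanca, Rad54l and Xrcc2 were higher in some rats and lower in others. Exo1 was level in H21 (1.61 CPM in both) and higher in the nodules of the other rats. The share of all genes that moved in 1 direction in all 4 rats was not computed at 14 weeks. The directions of Brca1 and Brca2 are therefore descriptions.

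At 20 weeks the nodules held more than NT liver of the same rat for most members. Fancd2 went from 1.66 to 3.26 CPM in F03, from 1.23 to 2.27 in H25, from 2.52 to 4.01 in H26 and from 2.64 to 4.36 in H28. Fanca, Exo1, Rad54l, Brca2 and Xrcc2 were likewise higher in the nodules of all 4 rats, and Brca1 in 3 of 4, the exception being F03 (3.29 to 2.80 CPM). Of all genes, 23.3% were higher in the nodules of all 4 rats. Without the pairing, edgeR called 0% of 11546 genes, with 2767 at an unadjusted p under 0.05, and no member passed. This 0 depended on the method: DESeq2 called 902 genes and no member, edgeR with all 8 groups in 1 fit called 1096 genes and Brca2 (0.57, adjusted p = 0.0405), and edgeR called 445 genes and no member without H25 and 218 genes and no member with nodule 1 alone. With the rat as a block, which the rat numbers in the labels give, 14.7% of genes were called and 5 of the 7 members rose: Exo1 by 0.97 ± 0.27 (adjusted p = 0.0157), Fancd2 by 0.77 ± 0.13 (adjusted p = 0.00129), Rad54l by 0.74 ± 0.21 (adjusted p = 0.0166), Fanca by 0.62 ± 0.18 (adjusted p = 0.0221) and Brca2 by 0.53 ± 0.13 (adjusted p = 0.00903). Xrcc2 (0.43 ± 0.16, adjusted p = 0.0578) and Brca1 (0.09 ± 0.13, adjusted p = 0.661) did not pass. Mki67 was higher in nodules by 1.02 ± 0.08 (adjusted p = 3.94e-06). Whether the difference between nodules and NT liver itself differed between 14 and 20 weeks was not tested.

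**Figure D3:**
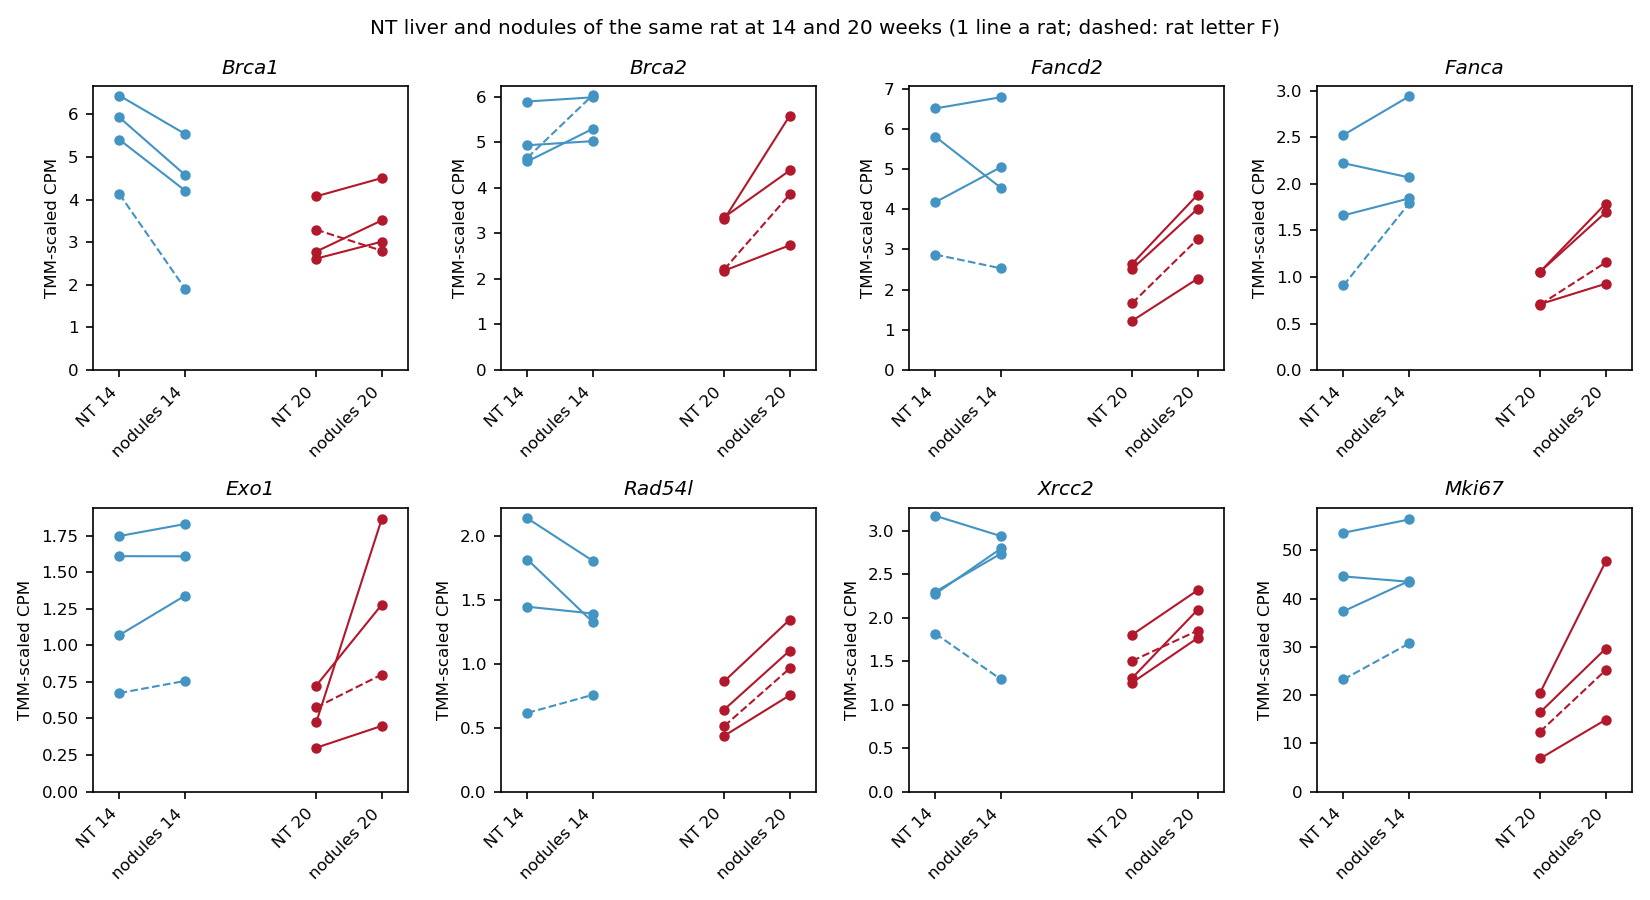
TMM-scaled CPM (vertical axis, from 0) in NT liver and nodules, 1 line per rat, at 14 weeks (blue) and 20 weeks (red); dashed lines are the rats with the letter F. At 20 weeks all lines rise except that of Brca1 in F03 (3.29 to 2.80 CPM). At 14 weeks all 4 lines of Brca1 fall and all 4 of Brca2 rise, and the share of all genes that do either was not computed.

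The change of each member was then set against that of Mki67 in the same rats. Read pairs of Brca1 per 100 pairs of Mki67 were 38.4 ± 11.4 (SD, n = 4) in No DEN liver and 12.3 ± 1.20 in NT liver at 8 weeks, and 39.5 ± 12.01 and 14.4 ± 2.47 at 14 weeks. Those of Xrcc2 were 21.4 ± 8.47 and 6.36 ± 1.01 at 8 weeks and 23.1 ± 3.13 and 6.24 ± 1.12 at 14 weeks. By contrast, Rad54l had 3.76 ± 2.44 and 3.72 ± 0.94 pairs per 100 at 8 weeks, and Exo1 had 4.15 ± 2.30 and 3.16 ± 0.35 at 14 weeks. These ratios depend on transcript length and are compared only between groups of the same gene. Thus Brca1 and Xrcc2 rose under DEN by less than Mki67. The ratios of treated and untreated rats overlapped for Rad54l at 8 weeks and for Exo1 at 14 weeks. At 14 weeks Rad54l had 2.64 to 4.07 pairs per 100 in NT liver against 3.80 to 6.82 in No DEN liver. In nodules of that week Rad54l had 2.46 to 3.20 pairs per 100, below all untreated rats.

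The difference between the log2 change of a gene and that of Mki67 was tested with limma on log2 CPM with a prior count of 2, and with an exact 2-sided permutation test of 4 against 4 rats, whose smallest possible p is 0.0286. At 8 weeks Xrcc2 (-1.67 ± 0.37), Brca1 (-1.59 ± 0.27), Brca2 (-1.28 ± 0.27) and Fanca (-1.06 ± 0.25) rose by less than Mki67 (limma adjusted p from 1.69e-06 to 0.00542, exact p = 0.0286 each). In H rats alone Fanca did not pass at 8 weeks (-0.97, adjusted p = 0.0674), and without H08 Fancd2 did (-1.04). At 14 weeks Xrcc2 (-1.92 ± 0.16), Brca2 (-1.60 ± 0.29) and Brca1 (-1.44 ± 0.25) did in NT liver, with Fanca as well without H11 (-0.93), and in nodules these 3 (-2.09 ± 0.17, -1.60 ± 0.28 and -2.10 ± 0.28) and Rad54l (-0.93 ± 0.21, adjusted p = 0.0334) did, the last not without H09, H10, H21 or H23 (adjusted p from 0.0527 to 0.102). At 20 weeks none of 6 did in NT liver (Brca1 and Xrcc2 did without H25), and Brca1 (-1.74 ± 0.33), Xrcc2 (-1.37 ± 0.33) and Brca2 (-0.97 ± 0.29, exact permutation p = 0.0571) did in nodules, Brca2 not without any 1 of F03, H13, H14, H16, H26 and H28 (-0.81 to -0.99). With Top2a, another gene of cycling cells, as reference, Brca2 was not called in nodules at 14 weeks (-0.90 ± 0.56, adjusted p = 0.116) or 20 weeks (-0.69 ± 0.26, adjusted p = 0.147), nor Rad54l in nodules at 14 weeks (-0.23 ± 0.32, adjusted p = 0.721). Top2a itself was low in the nodules of F06 at 14 weeks (9.03 CPM, the others at 34.3 to 42.6 CPM). The test against Top2a was not run without F06. Since most genes rise by less than Mki67, the same call was made for 97.5% of genes at 8 weeks, 96.2% in NT liver and 94.9% in nodules at 14 weeks, and 67.8% in NT liver and 87.9% in nodules at 20 weeks. The share in NT liver at 20 weeks was not stable. With all rats limma called 7335 genes, against 437 without H16, 502 without H14, 685 without H26, 1088 without H28, 3707 without F03 and 8990 without H25, and the exact permutation test called 0, so the count of 0 of 6 members there is not read against it. The counts of 4 of 7 members at 8 weeks, 3 in NT liver and 4 in nodules at 14 weeks, and 3 in nodules at 20 weeks were below their shares.

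Fancd2 and Exo1 were called below Mki67 in no comparison with all rats included, and Fanca and Rad54l in 1 each. Relative to Top2a, Fancd2 was called below at 8 weeks (-0.81 ± 0.31, adjusted p = 0.0129, exact permutation p = 0.0571). The same call was made for 10593 of the 10812 genes that passed the filter. For Fancd2 relative to Mki67 the difference lay between -0.68 ± 0.38 (8 weeks) and -0.19 ± 0.18 (NT liver at 20 weeks), for Exo1 between -0.60 ± 0.29 (NT liver at 14 weeks) and 0.12 ± 0.42 (8 weeks). Rad54l at 14 weeks in NT liver was at -0.73 ± 0.23, with the smallest exact permutation p of 0.0286 but a limma adjusted p of 0.0852. Exo1, Fanca and Rad54l have few counts in untreated liver, where the prior count shrinks their changes. With a prior count of 0.5, the difference of Exo1 at 8 weeks was 0.83, and Rad54l was no longer called in nodules at 14 weeks (-0.83, adjusted p = 0.0822).

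The picture depended on the measure of cycling. The 6 replicative helicase genes Mcm2 to Mcm7, which act in S phase, changed less under DEN than Mki67, which exceeded their mean by 1.12 ± 0.30 on the log2 scale at 8 weeks, 1.41 ± 0.17 in NT liver at 14 weeks, 1.53 ± 0.17 in nodules at 14 weeks, 0.32 ± 0.21 in NT liver at 20 weeks and 0.82 ± 0.13 in nodules at 20 weeks. Against the mean of Mcm2 to Mcm7, the differences of Fancd2, Fanca, Exo1 and Rad54l were positive wherever they were tested. At 8 weeks Exo1 (1.25 ± 0.49, adjusted p = 0.00438) and Rad54l (0.89 ± 0.23, adjusted p = 0.0159) exceeded it in limma, against 2.06% of genes. In NT liver at 14 weeks Fancd2 (1.08 ± 0.25, adjusted p = 3.07e-04), Exo1 (0.81 ± 0.26), Fanca (0.80 ± 0.30) and Rad54l (0.67 ± 0.22) did, against 3.78%, and in nodules at 14 weeks Fanca (1.13 ± 0.30), Fancd2 (1.02 ± 0.25) and Exo1 (1.01 ± 0.25) did, against 4.85%. In NT liver at 14 weeks the limma adjusted p was 0.0252 for Exo1 and 0.0474 for Rad54l, with an exact permutation p of 0.0571 for each. No member did at 20 weeks, in NT liver (2.77% of genes) or in nodules (4.41%). Brca2 kept close to Mcm2 to Mcm7 in all 5 comparisons, between -0.19 ± 0.15 and -0.08 ± 0.27, and was not called. Brca1 was called below them at 8 weeks (-0.47 ± 0.13, adjusted p = 0.0418) and in nodules at 14 weeks (-0.58 ± 0.14, adjusted p = 0.0351) and 20 weeks (-0.92 ± 0.22, adjusted p = 0.0153). In NT liver it was at -0.03 ± 0.10 at 14 weeks (adjusted p = 0.905) and -0.48 ± 0.13 at 20 weeks (adjusted p = 0.141). Xrcc2 lay between -0.56 and -0.45 in the 5 comparisons and was called below at 8 weeks (-0.55 ± 0.23, adjusted p = 0.048, exact permutation p = 0.0857). The same call was made for 86.8% of genes at 8 weeks, 84.8% in NT liver and 78.3% in nodules at 14 weeks, and 69.6% in NT liver and 76.1% in nodules at 20 weeks.

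**Figure D4:**
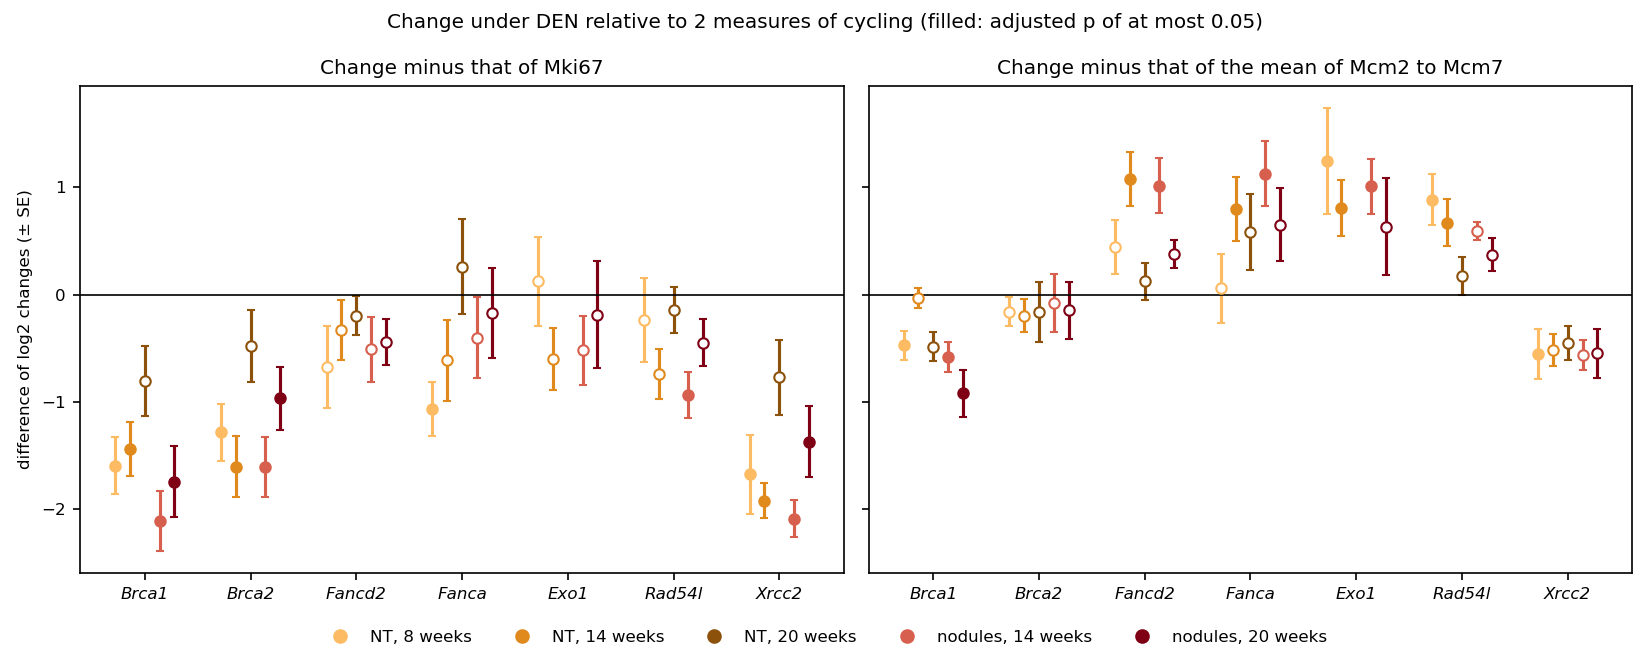
Difference between the log2 change under DEN of each member and that of Mki67 (left) or of the mean of Mcm2 to Mcm7 (right), ± SE, by tissue and week (colours); filled points have a limma adjusted p of at most 0.05. Brca1, Brca2 and Xrcc2 lie below 0 against Mki67, down to -2.10, and Fancd2, Fanca, Exo1 and Rad54l lie above 0 against Mcm2 to Mcm7, up to 1.25.

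Within groups, rats with more Mki67 tended to have more of the members, but not past the test. Over 24 rats with group means removed, Pearson's r of log2 CPM with Mki67 was 0.57 for Rad54l (Spearman's rho 0.54), 0.55 for Fancd2 (0.53), 0.49 for Brca1 (0.46), 0.42 for Brca2 (0.37), 0.41 for Fanca (0.44), 0.38 for Exo1 (0.35) and 0.38 for Xrcc2 (0.37), against a median of -0.003 over all genes. By permutation within groups (100000 resamples, 2-sided, Benjamini-Hochberg adjustment over 11595 genes), Rad54l had p = 0.0200 and an adjusted p of 0.272, Fancd2 had p = 0.0314 and an adjusted p of 0.329, and no member was called, against 0.69% of genes. Without the 2 rats farthest from the median in Mki67, r ranged from 0.20 (Exo1) to 0.70 (Fancd2), and in the 20 H rats from 0.26 (Fanca) to 0.45 (Fancd2). In the 12 DEN-treated rats alone r ranged from 0.57 (Xrcc2) to 0.96 (Fancd2), with adjusted permutation p from 0.0589 to 0.475. In each of these sets of rats except that of all 24, Fancd2 had the highest r of the 7.

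Over all 32 values of rats and tissues, the genes most like the mean log2 CPM of the 7 members were, of 11589 non-member genes, Arhgap11a (Pearson's r = 0.986), Prc1 (0.981), Ect2 (0.981), Fam111a (0.981), Incenp, Espl1, Melk, Cdca2, Kif20b and Bub1b (0.974). Mki67 was at rank 16 with r = 0.972. These values share libraries, and NT liver and nodules share rats, so the r values are descriptions. Each member was compared with the mean of the others in the same way. Fancd2 (0.963) and Rad54l (0.949) were the most like the rest, and Brca1 (0.856) and Xrcc2 (0.890) the least.

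Other genes of the same pathways, listed by function, moved less uniformly. The members and the lists were chosen with earlier results of these data known, so this contrast is a description. Over all genes tested, the shares that rose were 16.5%, 22.8% and 14.3% in NT liver at 8, 14 and 20 weeks and 23.9% and 23.6% in nodules at 14 and 20 weeks. Of the other homologous recombination genes, 25 of 36 listed had a row, and 8 of 24 tested rose at 8 weeks (33.3%) and 9 of 24 at 14 weeks (37.5%) in NT liver, with a median log2 fold change of 0.39 at 14 weeks. Those that rose at 14 weeks include Eme1, a subunit of a junction nuclease (2.48), Bard1, the partner of BRCA1 (2.47 ± 0.40), and Palb2, which links BRCA1 to BRCA2 (0.79 ± 0.16). In NT liver at 20 weeks 4 of 23 rose (17.4%, near the 14.3% of all genes), among them Bard1 by 1.74 and Mcm8 by 1.10. In nodules 11 of 25 rose and 1 fell at 14 weeks (Nbn, a subunit of the break sensor, by -0.55), and 9 of 25 rose at 20 weeks.

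Of the other Fanconi genes, 17 of 23 listed had a row. In NT liver 3 rose and 1 fell at 8 weeks, 4 rose at 14 weeks and 3 at 20 weeks, which is 17.6%, 23.5% and 17.6% of the list against 16.5%, 22.8% and 14.3% of all genes. These shares are near those of all genes. The list had a median log2 fold change of 0.23 at 14 weeks. The largest changes at 14 weeks were those of Ube2t, the ubiquitin-conjugating enzyme of the pathway (3.00 ± 0.42, adjusted p = 2.23e-04), the DNA-binding protein gene Uhrf1 (2.29) and the core complex subunit Fancb (2.05). Usp1, which removes the ubiquitin from FANCD2, was at 0.29 ± 0.08 and fell short of the size threshold. In nodules 5 rose and 1 fell at 14 weeks (Fan1, a nuclease, by -0.57) and 4 rose at 20 weeks (29.4% and 23.5% of the list, against 23.9% and 23.6% of all genes).

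End joining, the route that needs no sister chromatid, had 8 of 12 listed genes in the files, of which 1 rose at 8 weeks, 2 at 14 weeks and 0 at 20 weeks in NT liver, and 3 and 2 in nodules. With 8 genes, the shares of 12.5% and 25% at 8 and 14 weeks in NT liver and of 25% in nodules at 20 weeks are near those of all genes. Nhej1 rose by 2.48 at 8 weeks and 1.42 at 14 weeks, and the DNA end binder Xrcc5 by 0.58 at 14 weeks. Xrcc6, its partner, was at 0.44, under the size threshold. Of 14 checkpoint genes, 4, 7 and 2 rose in NT liver at 8, 14 and 20 weeks, among them at 14 weeks Clspn (2.25), Wee1 (1.45) and Chek1 (1.15 ± 0.16), while Atm was at 0.33 ± 0.09, short of the size threshold. These were 28.6%, 50% and 14.3% of the list, and the last equals the share of all genes. Of 20 S phase genes, 19, 19 and 9 rose at the 3 times, Rrm2 by 3.05, Cdc6 by 2.90, Mcm5 by 2.32, Mcm2 by 1.01 and Pcna by 0.74 at 14 weeks. All 16 mitosis genes rose at 8 and 14 weeks and 9 at 20 weeks, Cenpf by 3.17, Ccnb1 by 3.13, Ccna2 by 2.95 and Top2a by 2.62 at 14 weeks. The median log2 fold change at 14 weeks was 2.74 for the mitosis genes, 2.50 for the 7 repair members, 1.42 for the S phase genes and 0.27 for the end joining genes, as a description of lists chosen with earlier results of these data known.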

How the data were processed

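RNA-seq of polyadenylated RNA from 40 liver libraries was analysed. Per the labels and the methods of the study, the authors used STAR 2.7.1a to align stranded read pairs to rn6 and counted pairs on exons with HTSeq, and the deposited values are raw counts of 17337 genes. A pair had to lie wholly within the exons of 1 gene, and pairs aligned to several places were dropped. The summary lines that name no gene were left out: 21.5% to 34.5% of all pairs lay outside exons and 7.96% to 16.3% aligned to several places.

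Samples were grouped from the labels. Each comparison used its 2 groups, filterByExpr, TMM scaling and the quasi-likelihood test of edgeR 4.0.16 (R 4.3.3), and p was adjusted over all genes by Benjamini-Hochberg. Changes relative to Mki67 were tested with limma 3.58.1, whose variance prior takes in the scatter of Mki67 itself, so an exact permutation test, added after the data were seen, stands beside it. SE values of these differences are unmoderated. The labels give NT liver and nodules of a rat 1 number, and deviations from the group means of same-numbered samples correlated at 0.37 to 0.54 in all 8 rats over 11596 genes, so the fit with the rat as a block is given where it changes a call. The members and lists were chosen with earlier results of these data known. The genes named are the members, Mki67, a fixed set of pathway genes, the 3 genes per list with the largest change in NT liver at 14 weeks, and the 10 genes most like the members. Genes of the lists outside this rule (Mcm8, Nbn, Fan1) were chosen after their values were seen. Some genes that the rule names are not reported here. Alternatives were DESeq2 1.42.0, RLE scaling, no filter, 1 fit of all groups, leaving out each rat, H rats alone, a stricter threshold (log2 fold change of at least 1, adjusted p of at most 0.01), single nodules, the rat block, a prior count of 0.5, and Top2a or Mcm2 to Mcm7 in place of Mki67. The steps were tested on simulated data. No molecular identifiers were used, so counting error is a lower limit of the error.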

Additional observations from a re-analysis of the deposited data

Results flagged for a closer look

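In 5 of 64 groups of 4 rats, 1 rat lay apart from the other 3 beyond Dixon's 95% limit, where chance gives about 1 in 20 groups. Brca2 in No DEN liver at 8 weeks was high in H05 (2.06 CPM, the others at 1.77 to 1.82 CPM), and so was Rad54l (0.329 CPM, the others at 0.126 to 0.158 CPM, a difference of a few read pairs). In No DEN liver at 14 weeks, Brca1 was low in H12 (1.66 CPM, the others at 2.08 to 2.17 CPM) and Fanca was low in H11 (0.177 CPM, the others at 0.36 to 0.389 CPM). Xrcc2 was low in the nodules of F06 at 14 weeks (1.29 CPM, the others at 2.74 to 2.94 CPM).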

How the results depend on the processing

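Of the alternative values of single members, 1177 kept direction and side of the threshold, 52 no longer passed, 26 newly passed and 40 turned sign. Depth limits Exo1, Fanca and Rad54l most, with 0 to 20 read pairs in untreated livers. Relative to Mki67 and in the correlation, the H rats alone, and relative to Mki67 the exact tests, were chosen after seeing the data. Except where stated, the cause of a change was not tested. The number of members called in NT liver at 20 weeks was 1 at the stricter threshold (5 and 6 at 8 and 14 weeks, 5 in nodules at both times) and 1 to 5 when 1 rat was left out. Of all genes in NT liver at 20 weeks, 529 of 10827 were called at the stricter threshold. When 1 rat was left out, 1011 to 1635 were. The number in nodules against NT liver at 20 weeks was 1 with all groups in 1 fit and 5 with the rat as a replicate block, which changed no other count of members. The interaction from 8 to 14 weeks called 0 to 2 members and that from 14 to 20 weeks 0 to 2 when 1 rat was left out, the latter 2 with DESeq2 and 1 in H rats alone. Relative to Mki67 in NT liver at 20 weeks the number was 0 to 2 when 1 rat was left out. With Top2a as reference it was 2 in nodules at 14 weeks (Brca2 and Rad54l lost), 2 in nodules at 20 weeks (Brca2 lost) and 5 at 8 weeks (Fancd2 gained). Of the 11316, 11199 and 10812 genes that passed the filter in these comparisons, 9614, 9360 and 10593 were called below Top2a. With Mcm2 to Mcm7 as reference the number called below was 2 at 8 weeks, 0 in NT liver and 1 in nodules at 14 weeks, and 1 in nodules at 20 weeks.

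With Mcm2 to Mcm7 as reference the sign turned at 8 weeks for Fancd2 (0.45), Fanca (0.059) and Rad54l (0.89), in NT liver at 14 weeks for Fancd2 (1.08), Fanca (0.80), Exo1 (0.81) and Rad54l (0.67), in NT liver at 20 weeks for Fancd2 (0.12) and Rad54l (0.18), in nodules at 14 weeks for Fancd2 (1.02), Fanca (1.13), Exo1 (1.01) and Rad54l (0.59), and in nodules at 20 weeks for Fancd2 (0.38), Fanca (0.65), Exo1 (0.64) and Rad54l (0.37). With Top2a it turned for Exo1 at 8 weeks (-0.013), Fancd2 in NT liver at 14 weeks (0.027), Fancd2 (0.20), Fanca (0.31) and Exo1 (0.19) in nodules at 14 weeks, and Fanca (0.11) and Exo1 (0.093) in nodules at 20 weeks. The values in nodules at 14 weeks include F06, whose Top2a was low (9.03 CPM, the others at 34.3 to 42.6 CPM). With a prior count of 0.5 Rad54l at 8 weeks was at 0.037. When 1 rat was left out, values relative to Mki67 ranged from -0.18 to 0.37 (Exo1, 8 weeks), -0.50 to 0.086 (Rad54l, 8 weeks), -0.088 to 0.46 (Fanca, NT liver, 20 weeks), -0.52 to 0.029 (Fanca, nodules, 20 weeks) and -0.53 to 0.15 (Exo1, nodules, 20 weeks). Nodules against NT liver at 14 weeks ranged from -0.15 to 0.064 for Fancd2 and from -0.081 to 0.13 for Xrcc2. Fancd2 there was at 0.13 with nodule 1 alone, and Xrcc2 at -0.093 with nodule 2 alone and -0.020 with the rat as a replicate block. Brca1 in nodules against NT liver at 20 weeks was at -0.014 with nodule 1 alone.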

Other observations

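The 2 nodules of a rat were sequenced apart and can be set side by side. Both nodules of F06 at 14 weeks were below the other 6 nodules in 5 of the 7 members: Brca1 (1.67 and 2.23 CPM, the others at 3.33 to 5.74 CPM), Xrcc2 (1.25 and 1.41 CPM, the others at 2.49 to 3.28 CPM), Fancd2 (2.92 and 2.36 CPM, the others at 3.61 to 7.65 CPM), Exo1 (0.623 and 0.919 CPM, the others at 1.10 to 2.18 CPM) and Rad54l (0.739 and 0.821 CPM, the others at 1.27 to 2.16 CPM). In Fanca they had 1.71 and 1.97 CPM, the others 1.76 to 3.25 CPM. Both were within or above the range of the others in Brca2 (7.24 and 5.42 CPM, the others at 4.71 to 6.26 CPM). The topoisomerase gene Top2a was low in them too (7.43 and 10.96 CPM, the others at 31.9 to 45.1 CPM), and Mki67 was below the rest by less (30.4 and 33.0 CPM, the others at 40.3 to 58.8 CPM). At 20 weeks nodule 1 of F03 had the lowest Brca1 (1.76 CPM) and Xrcc2 (1.34 CPM) of the 8 nodules, and nodule 2 of H25 had the lowest Brca2 (2.13 CPM), Fancd2 (1.77 CPM), Exo1 (0.31 CPM), Fanca (0.831 CPM), Rad54l (0.598 CPM), Mki67 (10.1 CPM) and Top2a (8.91 CPM). These values were picked after they were seen and carry no test. The share of all genes with both nodules of F06 below the other 6 was not computed. The low values of F06 are therefore not read as a trait of the repair genes.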
